A study of Mus musculus with 20 samples.

Results

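The 10 genes described here mark the wall of brain vessels. They are 7 genes of endothelial cells (*Cldn5*, *Pecam1*, *Flt1*, *Kdr*, *Slco1a4*, *Abcb1a* and *Ly6c1*) and 3 of pericytes (*Pdgfrb*, *Rgs5* and *Vtn*), chosen by name out of the 35580 mouse genes of the files, with all transcripts of a gene summed. RNA-seq was run on the hippocampus and the neocortex (labelled cerebral cortex) of C57BL/6J mice aged 13.5 months. All were male according to the paper's results. Each tissue had 5 WT and 5 miR-324-null samples, 20 in all. The miR-324-null mice lack the microRNA gene *Mir324* in every cell of the body, after a CRISPR/Cas9 deletion made in zygotes of a mixed C57BL/6 and CBA/Ca background that was then backcrossed to C57BL/6J, and WT and null lines came from the same heterozygous crosses. The labels name no treatment. The labels do not say whether a hippocampus and a neocortex with the same number came from one mouse, nor whether the vessels were flushed of blood before RNA extraction. P-values measure the spread between these samples.

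Endothelial cells of the brain are sealed by tight junctions and carry their own set of transporters, and together with the pericytes that wrap them they form the blood-brain barrier. VEGF from neural cells acts on the endothelial receptors encoded by *Kdr* and *Flt1*, of which the first drives vessel growth and the second mostly holds VEGF back. PDGF-B released by endothelial cells keeps pericytes in place through the receptor encoded by *Pdgfrb*. Vessels make up a small part of brain tissue, so in whole tissue these transcripts follow the amount of vessel wall in a piece as well as the level per cell. In such bulk samples fewer cells of a type and less RNA per cell cannot be told apart.

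The deleted gene gives 2 mature microRNAs, which recognise target transcripts mainly by the seed, bases 2 to 8. They are printed 5′ to 3′ with the seed in capitals, to show what null mice have lost, from RefSeq at GRCm38.p6 (plus strand, chr11:70012060-70012082 and chr11:70012095-70012114).
miR-324-5p: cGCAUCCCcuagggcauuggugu
miR-324-3p: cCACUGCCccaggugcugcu

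The complement of the 5p seed, GGGATGC, stood in an annotated 3′ untranslated region of 10.98% of the 14592 tested genes that have one, and that of the 3p seed, GGCAGTG, of 19.8%, searched on the transcript strand only. The paper names 2 forms of miR-324-3p that differ in the predicted seed, and only the form printed above was searched. Of the 10 vessel genes, 2 held the 5p match and 4 the 3p match, and *Flt1* held both. The matches are shown in capitals within their surroundings, 5′ to 3′, because they are where the lost microRNAs could pair with these transcripts.
Flt1, 5p match: aaggctttGGGATGCgtccgtcc
Ly6c1, 5p match: cagatatgGGGATGCtctgtggc
Flt1, 3p match: tgtcagggGGCAGTGctgttcaa
Pecam1, 3p match: acagtcaaGGCAGTGcacgtccc
Kdr, 3p match: gccctggtGGCAGTGtctgaggg
Rgs5, 3p match: gcctcaagGGCAGTGctgtgagg

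None of these matches was followed by an A opposite the first base of the microRNA. The *Flt1* matches lay in the transcript Flt1-202, the main one in these samples. The *Ly6c1* match lay only in Ly6c1-203, which made up a mean of 1.11% to 1.36% of that gene's TPM in the 4 groups. Such matches describe the sequence and do not show binding. *Cldn5*, *Slco1a4*, *Abcb1a*, *Pdgfrb* and *Vtn* held neither of the matches searched.

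In GRCm38, *Flt1* (chr5:147561604-147726011 on the minus strand), *Kdr* (chr5:75932827-75978458 on the minus strand) and *Abcb1a* (chr5:8660077-8748575 on the plus strand) share a chromosome but lie far apart on it. *Pecam1* (chr11:106654217-106750628 on the minus strand) and *Vtn* (chr11:78499091-78502324 on the plus strand) are on the chromosome of *Mir324*. The others are *Cldn5* (chr16:18776847-18778262 on the plus strand), *Slco1a4* (chr6:141805440-141856199 on the minus strand), *Ly6c1* (chr15:75044018-75048830 on the minus strand), *Rgs5* (chr1:169655501-169695813 on the plus strand) and *Pdgfrb* (chr18:61045150-61085061 on the plus strand). *Ly6c1* shares 46.8% of its stretches of 31 bases with other genes, first of all *Ly6c2*, and *Abcb1a* shares 23.3%, nearly all with *Abcb1b*. For *Slco1a4* the share is 5.03% and for the other 7 genes it is at most 2.50%, so the levels of *Ly6c1* and *Abcb1a* are the least certain. Of their close relatives, *Ly6c2* and *Abcb1b* were low, with at most 52.4 and 94.4 estimated counts in a sample. *Ly6a*, which also shares stretches with *Ly6c1*, was not low and reached 726 estimated counts in a miR-324-null neocortex sample. The part of reads shared with *Ly6a* in the *Ly6c1* values was not tested. *Slco1a1* and *Slco1a5* did not exceed 9.21 estimated counts. *Slco1a6* had 8.50 to 24.1 estimated counts.

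Library totals ran from 12752439 to 19617765 estimated counts. No pair of replicates was one library deposited again, since their counts differed by at least 4.43 times the sampling noise (chi-square per degree of freedom). *Mir324* itself was at 0 estimated counts in all 20 samples, WT included, so these libraries do not check the genotype. The tissues matched their labels. *Prox1*, *C1ql2* and *Lct* of the dentate gyrus summed to 60.9 to 133 TPM in hippocampus. In neocortex they summed to 4.08 to 8.94 TPM in WT and 6.15 to 21.2 in null samples. The layer markers *Rorb*, *Tbr1* and *Lamp5* summed to 57.7 to 99.8 TPM in hippocampus. In neocortex these summed to 367 to 407 TPM in WT and 256 to 484 in null samples, highest in null neocortex 5. Choroid plexus, the fold of ependyma and leaky vessels beside the hippocampus, was present in 3 pieces by its transcripts. The summed level of its 8 markers was 6966 TPM in WT hippocampus 3, 6009.8 in miR-324-null hippocampus 5 and 1291 in miR-324-null neocortex 2, and at most 182 in the other 17 samples. The 5 red cell markers were above 1 TPM in every group, with a summed level of 1014 to 4839.6 TPM over the hippocampus samples and 798 to 2333 over those of neocortex.

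All 10 vessel genes were measured in every sample, and with length taken into account they kept one order in all 4 groups (mean ± SD in TPM, n = 5, for WT hippocampus). *Ly6c1*, a surface protein of brain endothelium and of some blood cells, was highest at 103 ± 9.61. *Vtn*, the adhesive matrix protein vitronectin that pericytes secrete in brain, followed at 86.2 ± 8.67, and *Rgs5*, a brake on G-protein signalling in mural cells, at 55.6 ± 2.35. *Cldn5*, the main claudin of the endothelial tight junction, reached 45.8 ± 3.38. Below it came *Flt1* (25.6 ± 2.44), the organic anion transporter *Slco1a4* (21.7 ± 2.06), the drug efflux pump *Abcb1a* (16.2 ± 2.27) and the adhesion molecule *Pecam1* (15.1 ± 0.696). The receptors *Pdgfrb* (10.1 ± 0.660) and *Kdr* (5.92 ± 1.18) were lowest. Against the 14472 genes with a mean of at least 1 TPM, the levels ran from the 25.4 percentile for *Kdr* to the 91.3 percentile for *Ly6c1*. Ranges of neighbours in this order overlapped in all 4 groups for *Flt1* and *Slco1a4* and for *Abcb1a* and *Pecam1*, so these pairs are not ordered beyond their spread. Of the VEGF receptors, *Flt1* was above *Kdr* in each of the 20 samples.

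In the other 3 groups the levels were of the same size. For miR-324-null hippocampus, WT neocortex and null neocortex in that order, *Ly6c1* had 108 ± 26.2, 114 ± 11.5 and 132 ± 37.2 TPM and *Cldn5* 39.0 ± 6.39, 46.5 ± 4.53 and 42.4 ± 5.38 TPM (mean ± SD, n = 5). *Flt1* had 21.3 ± 4.45, 28.3 ± 2.71 and 27.1 ± 3.29 TPM and *Kdr* 6.04 ± 2.26, 5.96 ± 0.621 and 5.99 ± 0.868 TPM. The transporters *Slco1a4* and *Abcb1a* had 19.7 ± 1.90, 22.7 ± 4.39 and 25.5 ± 2.999 TPM and 13.2 ± 0.882, 17.2 ± 0.110 and 16.2 ± 1.57 TPM. *Pecam1* stood close to *Abcb1a* in each group, at 12.9 ± 2.71, 15.7 ± 0.994 and 15.0 ± 2.17 TPM. Of the pericyte genes, *Vtn* had 85.3 ± 11.6, 88.0 ± 8.32 and 82.3 ± 5.67 TPM, *Rgs5* 55.4 ± 1.81, 58.4 ± 4.25 and 54.5 ± 1.98 TPM and *Pdgfrb* 9.14 ± 1.32, 9.87 ± 0.270 and 9.92 ± 1.53 TPM. The spread decided the order of only some neighbours. *Ly6c1* and *Vtn* overlapped in all groups but null neocortex, *Slco1a4* and *Abcb1a* only in WT hippocampus, and *Pdgfrb* overlapped with *Pecam1* and with *Kdr* only in null hippocampus.

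**Figure D1:**
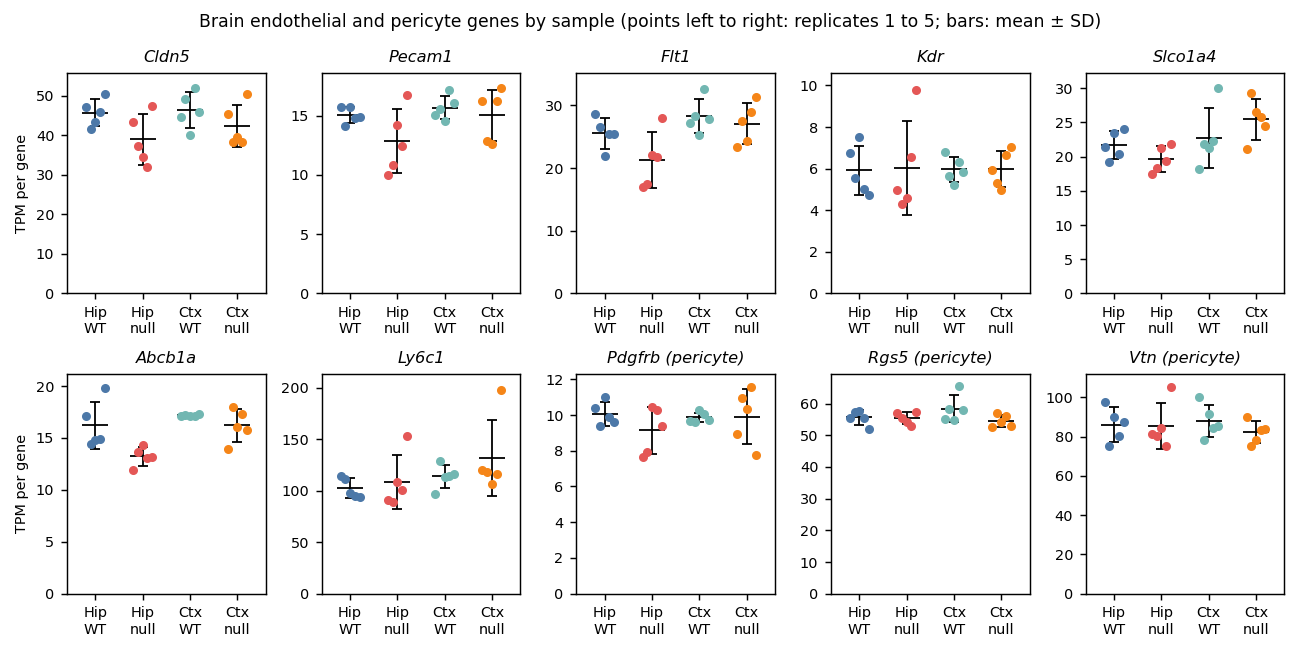
Levels of the 10 vessel genes in TPM, 1 panel a gene, with the 5 samples of each of the 4 groups as points (Hip, hippocampus; Ctx, neocortex; null, miR-324-null) and the mean and SD as bars; every axis starts at 0. The levels of most genes overlapped between the groups, and miR-324-null sample 5 was the highest of its group for *Pecam1*, *Flt1*, *Kdr* and *Ly6c1* in both tissues.

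The first comparison asks whether loss of miR-324 changed these genes in the hippocampus. None of the 10 was DE (edgeR, adjusted p ≤ 0.05), where 0.115% of the 14796 tested genes were. The limma and DESeq2 tests called none either. An unadjusted edgeR p of at most 0.05 was found for 3 of the 10, and for 11.1% of all genes. The median log2 fold change of the 7 endothelial genes was -0.23 and of the 3 pericyte genes -0.088, beside 0.0012 over all genes tested. The estimate was below 0 for 5 of the endothelial genes and above 0 for *Kdr* and *Ly6c1*. Markers of perivascular and meningeal fibroblasts (5 of 5 above 1 TPM) summed to 17.3 to 55.7 TPM in WT and 42.2 to 111 TPM in null hippocampus. The sum was carried by *Dcn* (log2 fold change 1.04), and 3 of the 5 markers had estimates below 0 (median of the 5, -0.37). The part of such cells in the result was not tested.

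The lowest estimate was that of *Abcb1a*, whose P-glycoprotein pumps drugs back into the blood. In CPM, counts scaled to a common library size, WT hippocampus gave 46.1, 36.5, 37.1, 39.4 and 47.2, and miR-324-null hippocampus 25.9, 31.6, 35.5, 34.7 and 33.2. Every miR-324-null sample lay below every WT sample, which 2.55% of all genes showed in either direction, and *Abcb1a* was the only one of the 10 genes to do so. The log2 fold change was -0.36 (SE 0.099), with a 95% interval of -0.57 to -0.14, and did not pass after adjustment (edgeR adjusted p = 0.264, 0.0727 to 0.552 over the alternatives).

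*Flt1* and *Kdr*, the VEGF receptors, differed in how their samples lay. *Flt1* gave 123, 104, 88.8, 99.2 and 102.03 CPM in WT and 70.0, 71.9, 86.0, 85.6 and 114 CPM in miR-324-null hippocampus. Samples 1 and 2 of the null group were lowest of all 10, and null sample 5 was above 4 of the WT samples. The log2 fold change was -0.27 (SE 0.12, edgeR adjusted p = 0.444). *Kdr* gave 25.6, 19.8, 26.7, 17.2 and 17.1 CPM in WT and 18.5, 16.1, 16.1, 22.7 and 34.8 CPM in null samples, a log2 fold change of 0.019 with the widest interval of the 10 genes (-0.44 to 0.48). Its sign rested on single samples. The log2 fold change was -0.22 without null sample 5 and also below 0 without WT sample 2, 4 or 5 (lowest -0.049).

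*Pecam1*, which joins endothelial cells to each other, gave 30.9, 27.1, 28.9, 25.3 and 28.1 CPM in WT and 18.8, 20.7, 23.3, 22.5 and 30.4 CPM in miR-324-null hippocampus. Of the null samples, 4 were below all WT samples and sample 5 was above 4 of them. The log2 fold change was -0.28 (SE 0.11, edgeR adjusted p = 0.383). *Cldn5* had WT values of 38.1, 31.9, 32.9, 33.6 and 38.9 CPM and null values of 34.5, 29.8, 25.6, 23.6 and 36.0 CPM, with samples 2, 3 and 4 of the null group below every WT sample and a log2 fold change of -0.23 (SE 0.11, edgeR adjusted p = 0.475). For *Slco1a4*, which moves organic anions such as bile acids and some hormones, values were 45.9, 38.9, 45.0, 36.2 and 52.7 CPM in WT and 40.0, 40.0, 36.8, 38.2 and 47.2 CPM in null hippocampus, an estimate of -0.11 (SE 0.10) with the groups mixed.

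*Ly6c1* had the highest estimate. Its values were 30.7, 28.0, 25.7, 29.2 and 26.5 CPM in WT and 29.6, 27.4, 33.3, 29.9 and 42.3 CPM in null hippocampus, where sample 5 was highest. The log2 fold change was 0.22 (SE 0.11) with a 95% interval of -0.017 to 0.45 (edgeR adjusted p = 0.480).

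Among the pericyte genes, *Rgs5* was the steadiest, at 143, 141, 139.6, 130.4 and 128 CPM in WT and 145, 142, 129, 124 and 138 CPM in null hippocampus. Its interval of -0.13 to 0.12 on the log2 scale was the narrowest of the 10. *Pdgfrb* had 35.8, 30.7, 35.8, 31.01 and 31.7 CPM in WT and 26.0, 26.9, 33.3, 32.4 and 30.3 CPM in null samples, of which samples 1, 2 and 5 were below every WT sample (log2 fold change -0.15, SE 0.083). *Vtn* had 88.7, 67.5, 75.4, 65.9 and 76.6 CPM and 63.8, 68.9, 70.5, 66.6 and 81.9 CPM, with ranges that lay across each other (log2 fold change -0.088, SE 0.088). Neither was DE.

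The estimates are set out here by seed match as a description, without a test. The carriers of a 5p match, *Flt1* and *Ly6c1*, had estimates of -0.27 and 0.22 in the hippocampus. Those of *Pecam1*, *Kdr* and *Rgs5*, with only a 3p match, were -0.28, 0.019 and -0.0064. The 5 genes with neither of the matches searched ran from -0.36 for *Abcb1a* to -0.088 for *Vtn*. For the neocortex, carriers of a match ran from -0.15 for *Rgs5* to 0.27 for *Ly6c1*, and the others from -0.18 for *Cldn5* to 0.028 for *Slco1a4*. Whether the matches had a part in these values was not tested.

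In the neocortex none of the 10 genes was DE by edgeR, DESeq2 or limma, where 0.315% of 14930 genes were by edgeR. That share rested on 1 library, since 566 genes (3.76%) were called without null neocortex 5 against 47 with it, and none of the 10 was among them. An unadjusted edgeR p of at most 0.05 was found for 2 of the 10, both pericyte genes, and for 12.2% of all genes. *Rgs5* had 129, 148, 127, 156 and 146 CPM in WT and 129.7, 132, 122, 127 and 123 CPM in miR-324-null neocortex, with a log2 fold change of -0.15 (SE 0.060, edgeR adjusted p = 0.338). *Vtn* had 79.2, 70.6, 69.5, 66.1 and 76.4 CPM in WT and 73.4, 63.4, 63.8, 64.6 and 64.2 CPM in null samples, of which sample 1 stood above the other 4, with a log2 fold change of -0.13 (SE 0.060, edgeR adjusted p = 0.406). The WT and null ranges overlapped for both genes, and for the other 8 as well, where 2.3% of all genes had ranges apart.

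The endothelial genes of the neocortex ran from -0.18 for *Cldn5* to 0.27 for *Ly6c1*. *Ly6c1* was again the one with the highest estimate (SE 0.13, edgeR adjusted p = 0.434), with 24.7, 34.5, 28.8, 34.7 and 32.8 CPM in WT and 36.2, 33.4, 33.5, 32.1 and 51.2 CPM in null neocortex. Sample 5 of the null group was the highest of the 20 samples for this gene. *Abcb1a*, with 43.9, 48.7, 40.7, 46.7 and 51.1 CPM in WT and 38.2, 47.7, 37.9, 44.5 and 40.0 CPM in null samples, had a log2 fold change of -0.14 (SE 0.077) and overlapping ranges. *Flt1*, *Pecam1*, *Kdr* and *Slco1a4* had estimates of -0.12, -0.10, -0.033 and 0.028.

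Per sample, *Flt1* gave 106, 121, 96.9, 127 and 117 CPM in WT and 96.1, 106, 91.7, 105 and 120.5 CPM in null neocortex. *Pecam1* gave 26.5, 30.0, 25.9, 30.9 and 31.2 CPM and 30.6, 22.9, 22.2, 26.8 and 31.5 CPM. In both genes null sample 5 was above the WT median, unlike null sample 3. *Cldn5* gave 32.7, 39.1, 29.0, 38.7 and 36.2 CPM in WT and 34.9, 27.7, 28.0, 27.2 and 37.1 CPM in null samples, with samples 2, 3 and 4 of the null group below every WT sample, as in the hippocampus. Its log2 fold change was -0.18 (SE 0.10, edgeR adjusted p = 0.541). For *Kdr* the values were 23.3, 20.8, 17.6, 22.1 and 21.5 CPM and 21.4, 18.0, 16.6, 22.3 and 24.3 CPM, and for *Slco1a4* 35.2, 45.9, 43.0, 45.3 and 54.9 CPM and 43.1, 51.3, 44.9, 41.7 and 46.6 CPM, both with mixed groups. *Pdgfrb*, at 30.3, 32.6, 31.6, 31.9 and 32.9 CPM in WT and 29.5, 33.9, 31.4, 35.0 and 24.5 CPM in null neocortex, had its lowest value in null sample 5, where several endothelial genes were highest, and an estimate of -0.037 (SE 0.085).

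None of the 10 genes was called for a difference in the effect of genotype between the tissues (interaction term of edgeR, with 0 also by DESeq2 and limma), and none had an unadjusted p of at most 0.05 for it, where 0.0195% of 15391 genes were called and 5.57% had such a p. Without null neocortex 5 the 3 genes called became 20, again with none of the 10. For *Abcb1a* the effect in the hippocampus was 0.21 lower on the log2 scale than in the neocortex (SE 0.13, 95% interval -0.48 to 0.066, edgeR adjusted p = 0.930), so the effects in the 2 tissues are not shown to differ.

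**Figure D2:**
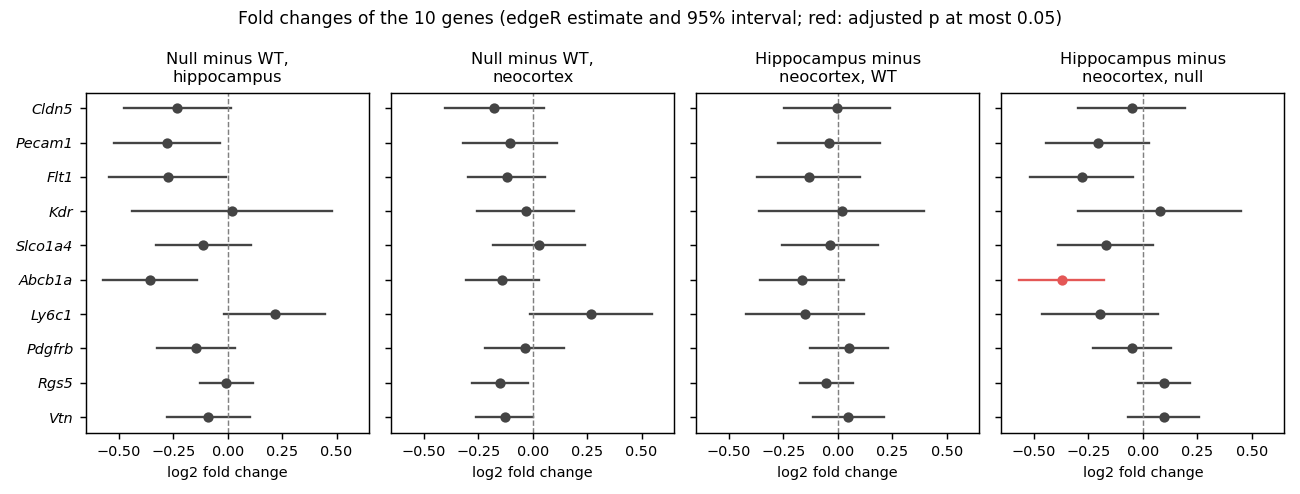
Log2 fold changes of the 10 vessel genes in 4 comparisons, as the edgeR estimate (point) with its 95% interval (line); the dashed line marks no difference. The single red interval, *Abcb1a* between tissues in miR-324-null samples, runs from -0.57 to -0.18 and is the 1 call among the 40 shown.

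The second comparison sets the tissues against each other, and in WT mice the estimates for the vessel genes were small. In WT mice none of the 10 was called between hippocampus and neocortex by edgeR, DESeq2 or limma, where edgeR called 33.5% of 15391 genes. None of the 10 had an unadjusted edgeR p of at most 0.05, beside 41.6% of all genes. The median size of log2 difference of the 10 was 0.049, beside 0.18 over all genes tested. Hippocampus minus neocortex, *Cldn5* differed by -0.0026 (-0.25 to 0.24), *Rgs5* by -0.052 (-0.17 to 0.069) and *Vtn* by 0.048 (-0.12 to 0.21) on the log2 scale. The largest estimate was that of *Abcb1a*, -0.16 (SE 0.093), and no gene had ranges apart, where 25.9% of all genes did.

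In miR-324-null mice 1 of the 10 genes was called, against 32.5% of all genes. *Abcb1a* was lower in the hippocampus than in the neocortex by 0.37 on the log2 scale (SE 0.094, edgeR adjusted p = 0.00393), and its ranges, given above for each tissue, did not overlap, as for 20.8% of all genes. Once changes in mean transcript length were allowed for, the estimate was -0.22 and the call was lost (edgeR adjusted p = 0.0675), the highest of its alternatives, which began at 0.000945. The transcripts behind this are described at the end. *Flt1* (-0.28, SE 0.11, edgeR adjusted p = 0.0636) and *Pecam1* (-0.21, SE 0.11, edgeR adjusted p = 0.176) were not called, but both were without null hippocampus 5 (edgeR adjusted p = 0.00427 and 0.0222). Over all alternatives their adjusted p ran from 0.00427 to 0.174 and from 0.0123 to 0.408. The other 7 genes had estimates from -0.20 for *Ly6c1* to 0.097 for *Rgs5*. That sample was also among those rich in choroid plexus transcripts, whose part in the result was not tested.

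Beside the 10, other genes of the vessel wall and its signals were taken from lists of 31 endothelial, 9 pericyte, 6 smooth muscle and 20 signalling genes. None of these 66 (65 of them tested in the neocortex) was DE between genotypes in either tissue or in the interaction by edgeR. An unadjusted edgeR p of at most 0.05 was found for 11.1% of all genes in the hippocampus. There 6 endothelial, 1 pericyte and 4 signalling genes had one. In the neocortex 7 endothelial and 2 signalling genes had one, beside 12.2% of all genes. For the interaction 1 endothelial and 4 signalling genes had one, beside 5.57% of all genes. In these comparisons the limma test called none of the 66, while DESeq2 called 2 in the hippocampus, where it called 0.941% of all genes. These were *Ptprb*, a phosphatase that restrains endothelial TIE2 signalling, at -0.40 (SE 0.090, edgeR adjusted p = 0.169, DESeq2 0.0105) and *Notch1*, a receptor used in vessel branching, at -0.30 (SE 0.078, edgeR adjusted p = 0.228, DESeq2 0.0422). The median log2 fold change of the 31 endothelial genes was -0.090 between genotypes in the hippocampus, and -0.10 in neocortex samples.

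Between tissues, 4 of the 31 endothelial genes were called in WT mice, 3 lower and 1 higher in the hippocampus, by edgeR, beside 33.5% of all genes. *Cd34*, a surface sialomucin, was lower by 1.08 on the log2 scale (adjusted p = 1.17e-07), and *Esam*, an adhesion molecule, and *Tfrc*, the transferrin receptor, by 0.37 and 0.34. *Ocln*, which encodes the junction protein occludin, was higher by 0.45. In null mice the 4 called were *Cd34* (-0.79), *Ocln* (0.45), *Ptprb* (-0.38) and *Esam* (-0.28). Of the 9 pericyte genes none was called in WT by edgeR, DESeq2 or limma. An unadjusted edgeR p of at most 0.05 was found for 2 of the 9, beside 41.6% of all genes. *Abcc9*, a subunit of a pericyte potassium channel, was called in null mice at -0.36. The smooth muscle gene *Mylk*, myosin light chain kinase, was higher in the hippocampus in both genotypes (0.47 in WT and 0.34 in null mice), the only one of its 6 genes to be called.

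Of the 20 signalling genes, 9 were higher and 1 lower in WT hippocampus, and 5 higher and 1 lower in null hippocampus, beside 33.5% and 32.5% of all genes in either direction. *Nrp1*, a co-receptor of VEGF that neurons also use, was higher by 1.47 in WT and 1.46 in null mice (edgeR adjusted p = 5.06e-08 and 5.47e-08). The TIE2 ligand *Angpt1* was higher by 1.33 in WT, and in null mice its estimate was 0.57 (edgeR adjusted p = 0.0732). *Pgf*, a ligand of FLT1, was higher by 0.98 in WT and 1.24 in null mice. The WNT ligands that instruct the barrier were higher too, *Wnt7b* by 0.61 and 0.60 and *Wnt7a* by 0.51 and 0.49. *Vegfa*, the ligand of both VEGF receptors, was the one that was lower, by 0.29 in WT and 0.29 in null mice. The markers of neurons differed between the tissues in the same fit, with all 4 lower in WT hippocampus and a summed level of 2490.5 to 2766 TPM there and 3758 to 4229 TPM in WT neocortex, and the part of cell composition in these differences was not tested.

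Within groups the endothelial genes varied together from sample to sample. For this the log2 CPM of a sample was taken minus the mean of its group, so that tissue and genotype drop out, over all 20 samples, and the correlations are given as a description because samples share library and dissection. Of the 21 pairs of endothelial genes, 20 had a positive r, with a median of 0.45. The highest were *Flt1* with *Ly6c1* (0.78), *Pecam1* with *Flt1* (0.77) and *Pecam1* with *Ly6c1* (0.75). Against the mean profile of the other 6, *Flt1* and *Pecam1* followed it most closely (r = 0.83 and 0.83) and *Abcb1a* least (0.34). The 3 pairs of pericyte genes had r of 0.0011, 0.0023 and 0.24, the last for *Pdgfrb* with *Vtn*. Of the 21 pairs of an endothelial and a pericyte gene, 19 had a positive r (median 0.21).

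Null hippocampus 5 and null neocortex 5 carried much of the endothelial pattern. The first was above its group mean in all 7 endothelial genes and the second in 6 of 7, with median deviations of 0.40 and 0.25 on the log2 scale. WT hippocampus 1 and WT neocortex 4 and 5 were also above in all 7, by a median of 0.14, 0.099 and 0.088. The null samples deviated by 0.75 for *Kdr*, 0.43 for *Flt1*, 0.41 for *Pecam1* and 0.40 for *Ly6c1* in the hippocampus sample, and by 0.25, 0.22, 0.25 and 0.48 in the neocortex sample. The sum of the other 31 endothelial genes was highest in these samples too, at 665 and 714 TPM, and the other 18 libraries had 511 to 663 TPM. The neocortex sample had no choroid plexus excess (31.9 TPM). WT neocortex 3 lay below its group mean in all 10 genes. The 2 samples farthest from the median profile were these 2 null samples. Without them, r with the profile was 0.70 for *Flt1*, 0.69 for *Pecam1* and 0.58 for *Ly6c1*, and 0.26 for *Kdr*, which had 0.57 with them. For *Cldn5* it fell from 0.52 to 0.30, and for *Abcb1a* it rose from 0.34 to 0.48, so *Abcb1a* was then not the least close. Of the pericyte genes, *Pdgfrb*, *Rgs5* and *Vtn* then had r of 0.38, 0.47 and 0.45 with the endothelial mean, and 0.049, 0.34 and 0.54 with all 20 samples.

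**Figure D3:**
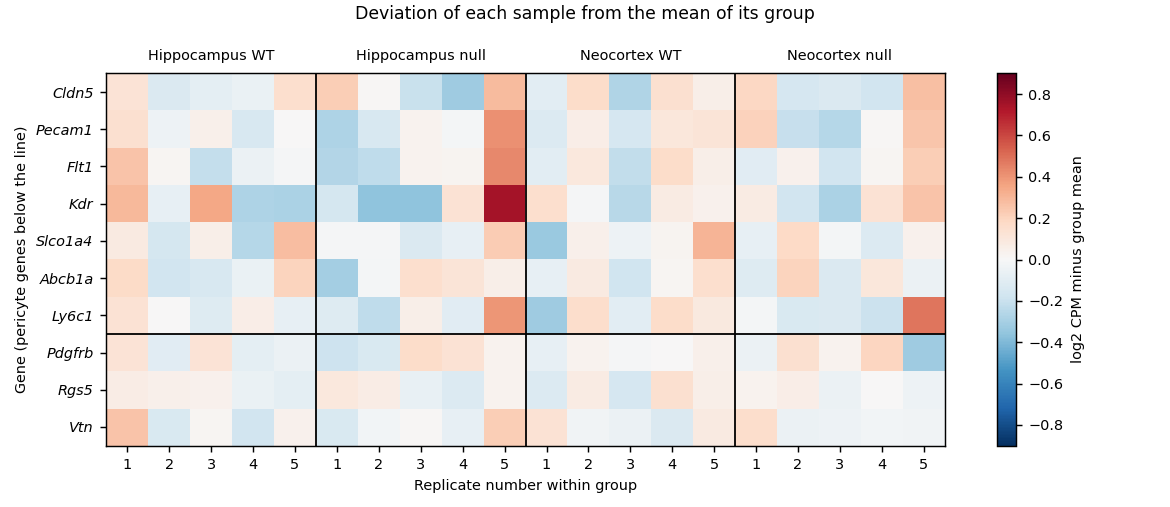
Deviation of log2 CPM from the mean of the sample's own group (colour) for the 10 vessel genes in rows and the 20 samples in columns, with the 4 groups divided by vertical lines and the pericyte genes below the horizontal line. The column of miR-324-null hippocampus 5 is red in all rows, with 0.75 for *Kdr* as the highest value. Below the line, the largest deviation is -0.32 for *Pdgfrb* in miR-324-null neocortex 5.

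Outside the 10 genes, those with profiles closest to the endothelial mean were *Akt2* (r = 0.88), *Srgn* (0.88), *Acvrl1* (0.87), *Cdh5* (0.86), *Arap3* (0.86), *Hspb1* (0.86), *Cd93* (0.86), *Hnrnpf* (0.85), *Sdf2l1* (0.84) and *Adgrl4* (0.84) over 20 samples. *Cdh5* encodes VE-cadherin, *Acvrl1* a receptor for BMP9 and BMP10 on endothelium, and *Cd93* and *Adgrl4* endothelial surface proteins, while *Akt2* and *Hnrnpf* are used in most cells. Of these 10, *Cdh5* was on the list of 31 endothelial genes. Over the list of 31 endothelial genes the median r was 0.58, over 6 smooth muscle genes 0.39, over 9 other pericyte genes 0.14 and over all 15391 genes 0.0044. Without the 2 samples the first of these was 0.42. With the pericyte mean the closest genes were *Tbx18* (0.84), a transcription factor of mural cells, *Acsf2* (0.83), *Timp3* (0.81), *Myl9* (0.80), *Rbpms* (0.78), *Pros1* (0.77), *Vcam1* (0.77), *Lamb2* (0.77), *Tcea3* (0.76) and *Smagp* (0.75). Lists of other cell types were as close to this profile as mural lists. The median r with it was 0.63 over 5 microglia markers, 0.62 over smooth muscle genes, 0.58 over fibroblast markers, 0.44 over astrocyte markers, 0.33 over the 31 endothelial genes and 0.21 over the 9 other pericyte genes.

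Because the endothelial genes varied together, each was also set against the other 6 in the same sample, as CPM over their geometric mean. This measure was chosen after the values were seen and has no test. For *Ly6c1* the ratio was 0.688, 0.757, 0.652, 0.817 and 0.647 in WT and 0.957, 0.882, 1.04, 0.897 and 0.971 in miR-324-null hippocampus. In the neocortex it was 0.640, 0.797, 0.796, 0.791 and 0.733 in WT and 0.923, 0.879, 0.976, 0.838 and 1.19 in null samples. In both tissues every null sample was above every WT sample. The group means were 0.712 ± 0.0734 and 0.949 ± 0.0632 in the hippocampus and 0.752 ± 0.0681 and 0.961 ± 0.137 in the neocortex (SD, n = 5).

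Outside the 10 genes, 0.728% of genes had a ratio to the 7 endothelial genes that was higher in all null samples in the hippocampus, 0.397% in the neocortex and 0.0975% (15 of 15381) in both. These shares were counted in the direction of *Ly6c1* after its values were seen, and the tissues may come from the same mice. They are therefore no test of how rare its ratio is. The CPM of *Ly6c1* itself had overlapping WT and null ranges in both tissues. Of the other vessel genes, *Pecam1* alone had ratios apart, lower in null hippocampus, and in no gene but *Ly6c1* were they apart in both tissues. Among the 45 pairs of the 10 genes, 2 ratios had WT and null ranges apart in both tissues, those of *Ly6c1* to *Flt1* and to *Pecam1*. How many of all genes had lower ratios, or of all pairs of genes ratios apart, was not counted. In TPM, which also depends on the transcripts that reads were given to, the *Ly6c1* ratios overlapped. They were 5.02 to 6.58 in WT and 6.37 to 7.69 in null hippocampus, and 5.27 to 6.82 and 5.99 to 9.64 in the neocortex. The relative *Ly6a*, also on the endothelial list, had a log2 fold change of 0.042 (SE 0.36) in the hippocampus and 0.14 (SE 0.36) in the neocortex, and *Ly6c2* one of 0.39 (SE 0.45) and 0.59 (SE 0.50), none of them DE. Some white blood cells carry *Ly6c1* too, and their part in the ratio was not tested.

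**Figure D4:**
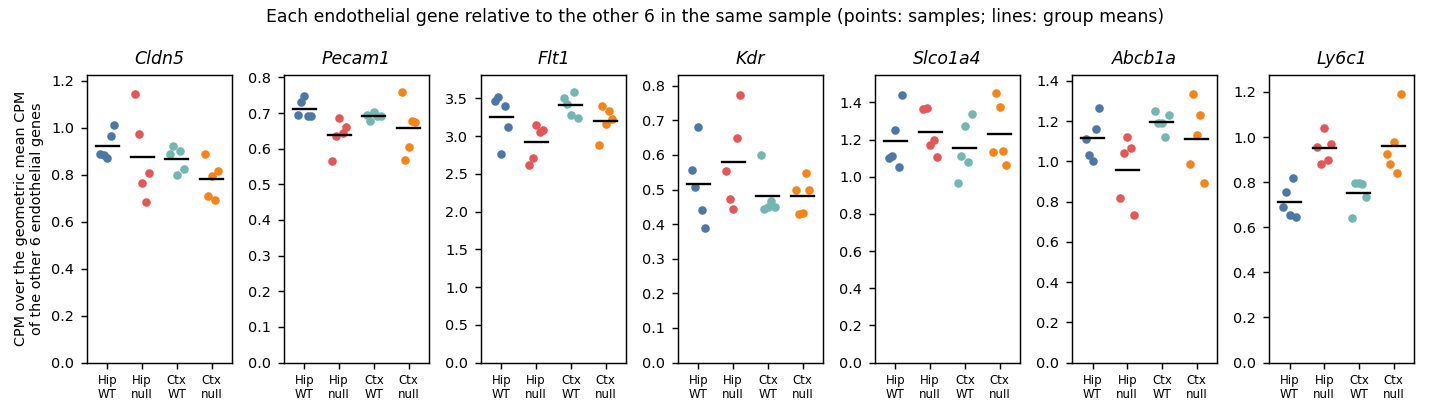
CPM of each of the 7 endothelial genes divided by the geometric mean CPM of the other 6 in the same sample (vertical axis, from 0), with samples as points and group means as lines. Only in the *Ly6c1* panel do the miR-324-null points lie above all WT points in both tissues, with group means of 0.949 against 0.712 in the hippocampus and 0.961 against 0.752 in the neocortex.

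The transcripts behind the gene sums were examined last. *Cldn5*, *Kdr* and *Rgs5* came nearly all from 1 transcript each, and Pdgfrb-201 took a mean of 91.1% to 96.7% of its gene. The other 6 genes had 2 or more transcripts with a mean share of at least 10%. The share of the leading transcript was compared in these 6 genes and 4 comparisons, 24 tests in all, with exact permutation tests. None passed after adjustment, and 1 had an unadjusted p of at most 0.05. The error of estimating such shares from short reads was not measured here.

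*Flt1* had the steadiest shares of the 6. Its main transcript, Flt1-202, encodes 1333 residues and took 69.9% ± 0.923 of TPM in WT hippocampus, 71.0% ± 1.89 in null hippocampus, 70.3% ± 2.04 in WT neocortex and 71.2% ± 3.27 in null neocortex. Flt1-203, annotated with 688 residues, took 28.5% ± 2.55, 26.98% ± 2.82, 28.8% ± 1.35 and 26.8% ± 2.55 in the same order. *Flt1* is known to give a full receptor and a shorter secreted form that binds VEGF away from the cell. The share of Flt1-202 differed by at most 1.10 percentage points in any of the 4 comparisons (lowest exact permutation p = 0.278).

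For *Abcb1a* the split varied more among samples. The coding transcript Abcb1a-201 took 35.9, 55.3, 73.9, 82.8 and 67.7% of the gene's TPM in null hippocampus and 80.1, 84.9, 73.9, 83.0 and 73.8% in null neocortex. In WT samples it took 69.0, 71.1, 66.1, 82.9 and 55.1% in the hippocampus and 76.4, 79.7, 66.4, 86.2 and 89.6% in the neocortex. The rest went mainly to Abcb1a-202, annotated as a retained intron. Hippocampus minus neocortex, the share of Abcb1a-201 differed by -16.0 percentage points in null samples (exact permutation p = 0.0714, adjusted 0.317) and by -10.8 in WT samples (exact permutation p = 0.111, adjusted 0.333). Null minus WT, it differed by -5.74 points in the hippocampus and -0.539 in the neocortex, within the spread of samples.

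For *Ly6c1* the leading transcript, Ly6c1-201, took 42.0% ± 5.01 of TPM in WT and 51.5% ± 6.49 in null neocortex (exact permutation p = 0.0476, adjusted 0.317), and 45.2% ± 12.6 and 43.4% ± 17.0 in the hippocampus. The short transcript Ly6c1-204, whose share was not tested, took 30.0% ± 6.37 in WT and 16.5% ± 11.6 in null hippocampus. In the neocortex it took 29.3% ± 8.97 and 18.5% ± 11.1. Its ranges overlapped, with 18.9% to 34.5% in WT and 1.23% to 31.1% in null hippocampus. In the neocortex they were 14.3% to 38.6% and 2.73% to 31.5%. *Pecam1* spread over Pecam1-204, Pecam1-203 and Pecam1-202 with shares that varied widely among samples, from 7.71% to 47.9% for the first. The leading transcript took a mean of 73.7% to 87.0% for *Slco1a4* and 78.7% to 84.2% for *Vtn* over the 4 groups.

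**Figure D5:**
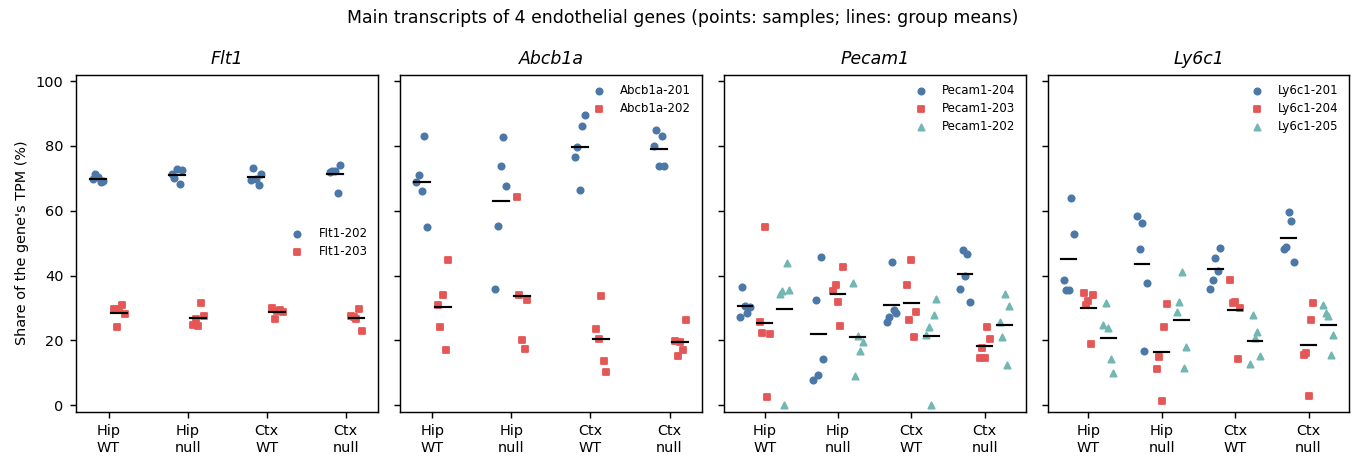
Share of the gene's TPM (percent, 0 to 100) taken by the main transcripts of *Flt1*, *Abcb1a*, *Pecam1* and *Ly6c1*, with samples as points and group means as lines. Flt1-202 stays between 65.5% and 74.0%, while Abcb1a-201 runs from 35.9% to 89.6%.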

How the data were processed

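The authors sequenced stranded mRNA libraries and ran kallisto against an Ensembl mouse transcriptome, and deposited for each sample the estimated counts and TPM of 115270 transcripts. The submitters' processing notes name a human build, but all transcript identifiers are of mouse. Identifiers of 113580 transcripts were matched to GENCODE M21 (GRCm38), and the 1690 others held at most 0.556% of the counts of a sample. Estimated counts were summed per gene, rounded, filtered with filterByExpr, normalised by TMM and tested with the quasi-likelihood test of edgeR 4.0.16 in R 4.3.3, with Benjamini-Hochberg adjustment over all genes tested and calls at 0.05. Genotypes were compared within a tissue (10 samples) and tissues and the interaction in 1 fit of 20 samples. Transcript shares were compared with two-sided exact permutation tests (smallest p 0.00794) in scipy 1.17.1. Alternatives used DESeq2 1.42.0, limma 3.58.1 on log2(TPM + 0.5) or log2(TPM + 0.1), a length offset, other filters and scaling, a replicate block and left-out samples. The edgeR step was tested on simulated counts with the same spread for all genes and no outlying samples. That setting is simpler than these data. Other genes were named from marker lists where called, at most 4 a list and comparison by fold size, and by likeness to the mean profiles (10 each). The tissue markers, *Ly6a*, *Vegfa*, *Angpt1* in null mice and the calls of DESeq2 were picked with their values in view. The members and lists were chosen with earlier results of these data known.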

Additional observations from a re-analysis of the deposited data

Results flagged for a closer look

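Each group of 5 samples was searched for a single value far from the others (gap over range above Dixon's 95% critical value), in 40 groups of a vessel gene and 64 of a marker list. Chance gives about 1 such value in 20 groups. Of the vessel genes, *Ly6c1* at 51.2 CPM in miR-324-null neocortex 5 was far above the next sample (36.2 CPM), and *Vtn* at 73.4 CPM in null neocortex 1 was far above the next (64.6 CPM). The 7 endothelial genes summed to 291 TPM in null hippocampus 5 (next, 219) and 344 TPM in null neocortex 5 (next, 249.7), and the 31 other endothelial genes to 665 TPM in null hippocampus 5 (next, 555).

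The other values belonged to lists beside the vessel genes. WT hippocampus 3 had high sums of smooth muscle (160.4 TPM), red cell (4839.6 TPM) and choroid plexus markers (6966 TPM). The choroid plexus sum was also high in null hippocampus 5 (6009.8 TPM) and null neocortex 2 (1291 TPM). The signalling list was low in WT neocortex 2, at 250.2 TPM (next, 278).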

How the results depend on the processing

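The count of 0 called vessel genes held under all alternatives and with each sample left out, between genotypes in the hippocampus and in the neocortex, between tissues in WT and for the interaction. Between tissues in null mice the count of 1 became 0 with the transcript-length offset, 3 with limma on log2(TPM + 0.5) or log2(TPM + 0.1) (*Abcb1a*, *Flt1* and *Slco1a4*), 2 with the replicate block (*Abcb1a* and *Flt1*) and 3 without the samples rich in choroid plexus transcripts (*Abcb1a*, *Flt1* and *Pecam1*), an alternative chosen after the data were seen. The count ran from 1 to 3 as samples were left out, with 3 only without null hippocampus 5. The cause of these changes was not tested. The count of 0 transcript shares called held throughout. The smallest count behind a value was 210 (*Kdr* in null hippocampus 2), and 5 samples a group left intervals as wide as -0.44 to 0.48 on the log2 scale, so small differences were not detectable.

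The same number across tissues correlated at -0.10 to 0.10 in WT (5 of 10 samples closest to their own number) and 0.017 to 0.18 in null mice (7 of 10). Across genotypes, where the mice differ, it correlated at -0.17 to 0.11 in the hippocampus (1 of 10) and -0.10 to 0.12 in the neocortex (2 of 10). Samples were thus closest to their own number more often across tissues than across genotypes. These values do not settle whether equal numbers across tissues were 1 mouse. The labels do not say so, and the main fit therefore did not pair them, with the replicate block as the alternative. If they were 1 mouse, the 2 tissues are not independent.

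Near 0 the sign of an estimate changed with the setting. With limma on log2(TPM + 0.5), the log2 fold change was -0.013 for *Kdr* between genotypes in the hippocampus, 0.0017 for *Kdr* between genotypes in the neocortex, -0.023 for *Kdr* between tissues in WT, -0.031 for *Vtn* between tissues in WT, -0.038 for *Kdr* between tissues in null mice and -0.015 for *Kdr* in the interaction. With limma on log2(TPM + 0.1), the log2 fold change was -0.017 for *Kdr* between genotypes in the hippocampus, 0.0015 for *Kdr* between genotypes in the neocortex, -0.026 for *Kdr* between tissues in WT, -0.031 for *Vtn* between tissues in WT, -0.044 for *Kdr* between tissues in null mice and -0.018 for *Kdr* in the interaction. With the replicate block, the log2 fold change was -0.020 for *Kdr* between genotypes in the hippocampus and 0.0017 for *Cldn5* between tissues in WT. Without the choroid plexus samples, the log2 fold change was -0.13 for *Kdr* between genotypes in the hippocampus, -0.20 for *Kdr* between tissues in null mice, -0.13 for *Kdr* in the interaction and -0.024 for *Vtn* in the interaction. Without a filter, the log2 fold change was 0.0090 for *Cldn5* between tissues in WT. With the length offset, the log2 fold change was 0.0024 for *Cldn5* between tissues in WT. As samples were left out, between genotypes in the hippocampus, it ran from -0.22 to 0.11 for *Kdr* and -0.032 to 0.023 for *Rgs5*. Between genotypes in the neocortex, it ran from -0.099 to 0.032 for *Kdr*, -0.049 to 0.11 for *Slco1a4* and -0.088 to 0.039 for *Pdgfrb*. Between tissues in WT, it ran from -0.057 to 0.046 for *Cldn5*, -0.067 to 0.098 for *Kdr*, -0.10 to 0.055 for *Slco1a4* and -0.012 to 0.096 for *Vtn*. Between tissues in null mice, it ran from -0.12 to 0.029 for *Cldn5*, -0.16 to 0.18 for *Kdr* and -0.12 to 0.0038 for *Pdgfrb*. In the interaction, it ran from -0.13 to 0.023 for *Cldn5*, -0.18 to 0.15 for *Kdr*, -0.16 to 0.095 for *Ly6c1* and -0.014 to 0.11 for *Vtn*. None of these values was called.

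Over all genes the counts called between genotypes were 17 in the hippocampus and 47 in the neocortex. They were 139 and 240 with DESeq2, 83 and 56 in 1 fit of 20 samples, 4 and 30 with the replicate block, 11 and 22 with limma on log2(TPM + 0.1), and 17 and 30 with the length offset. With single samples left out the hippocampal count was 10 to 31 and the neocortical count 27 to 566, the highest being without null hippocampus 5 and without null neocortex 5 (the next highest in the neocortex was 39). For the interaction, 3 became 11 with DESeq2, 1 with the length offset and 0 with the replicate block, and ran from 1 to 20 with single samples left out, the highest again without null neocortex 5.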
